A study of Mus musculus with 18 samples.

Results

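The loci described here are imprinted genes whose control regions are methylated on the paternal copy: H19 and Igf2 on mouse chromosome 7, Dlk1 and Meg3 on chromosome 12, and Rasgrf1 on chromosome 9. Their members were all CpGs with at least 5 reads in a library inside 3 windows of genome build mm9. The windows are defined by position, and they were chosen with earlier results of these data known. The windows ran from 149755 to 149860 kb on chromosome 7, from 110685 to 110820 kb on chromosome 12 and from 89760 to 89785 kb on chromosome 9. They held 360 CpGs of the 1476285 that reached 5 reads in any library, namely 187 in the H19 and Igf2 window, 165 in the Dlk1 and Meg3 window and 8 in the Rasgrf1 window. Of these, 142 reached 5 reads in all 18 libraries, out of 711980 such CpGs in the genome.

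DNA methylation was measured by multiplexed reduced representation bisulfite sequencing, in which the enzyme MspI cuts DNA at CCGG and bisulfite then turns unmethylated cytosines into uracil, so that the share of reads still showing a cytosine gives the methylation level of a CpG. The 18 libraries came from mammary epithelium of C57BL/6 female mice, an inbred strain with no transgene or treatment in the labels. They comprised 9 pregnant libraries (days 10, 16 and 19 of pregnancy), 3 libraries of retired breeders and 6 virgin libraries (weeks 3 and 9 of age), each stage giving 1 library of cells labelled stem, 1 of luminal progenitor cells and 1 of mature luminal cells. The labels do not state the ages of pregnant and retired mice, so age cannot be told apart from pregnancy or retirement. Nor do they state the surface markers used to purify the cells or the number of animals behind a library. The series asks how pregnancy and parity go along with methylation in these cell types. The stages of one state served as replicates, and no label ties libraries to separate animals, so every p-value measures the spread between these libraries. The cell type labels were not checked against marker genes, because no gene annotation of build mm9 was used. Each library is a bulk of purified cells, so a change in methylation and a change in the mix of cells cannot be told apart.

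At an imprinted locus the copy inherited from one parent is expressed and the other is silent, under the direction of a control region that is methylated in the germ line of one parent only. H19, a long noncoding RNA, and Igf2, a fetal growth factor, share enhancers, and the methylated paternal control region keeps the insulator protein CTCF away so that the enhancers reach Igf2. Dlk1, a membrane protein of the Notch ligand family, and Meg3, a maternally expressed noncoding RNA, follow a methylated intergenic region on the paternal chromosome, and Rasgrf1, a guanine nucleotide exchange factor for Ras, depends in the mouse on a control region upstream of the gene. A CpG methylated on the paternal copy alone reads at an intermediate level, but so does a CpG methylated in only a part of the cells. Reads of an inbred strain carry no mark of the parent, so these levels do not tell the copies apart.

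One stretch could be tied to a gene by sequence. A promoter of Igf2 in RefSeq (build GRCm38.p6, chromosome 7, minus strand) was matched to the mm9 files by the spacing of its CpGs, because CpG positions were the only sequence information at hand. All 8 CpGs that the libraries read inside this promoter fell on the pattern at a single place in the window, and the next best place on the chromosome matched 5. The 250 bases before the start site lay at chr7:149844710-149844959 on mm9, with the start site at 149844709. They are shown because they place the unmethylated stretch described below. The sequence is given 5′ to 3′ on the minus strand, and capitals mark the 8 CpGs that were read.
Igf2 promoter: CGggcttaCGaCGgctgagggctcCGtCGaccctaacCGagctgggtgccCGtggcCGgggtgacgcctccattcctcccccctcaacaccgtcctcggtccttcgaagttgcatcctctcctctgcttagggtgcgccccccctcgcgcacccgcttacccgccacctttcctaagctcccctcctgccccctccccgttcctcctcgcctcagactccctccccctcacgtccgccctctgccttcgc
These 250 bases held 22 CpGs and 1 CCGG, which is palindromic and therefore the same on both strands. Of 32851 RefSeq promoter windows of 250 bases, 47.1% held a CCGG. The 8 CpGs lay 194 to 250 bases before the start site, and the rest of the promoter was not read. Their mean levels ran from 0% to 0.928%, and the highest level of any of them in any library was 11.9%. The other promoters of Igf2 and those of Dlk1 and Rasgrf1 were not placed. A Meg3 promoter with 13 CpGs matched only 2 read CpGs and did so at 5 places in the window, so it was not placed either, and the remaining stretches are named by coordinates.

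Depth set how finely each stretch could be read. Libraries held between 17513287 and 117922522 reads summed over CpGs, the fewest in retired mature cells and the most in week 9 virgin mature cells. At the member CpGs the median was 7 to 56 reads, and 232 to 352 members reached 5 reads. The pregnant stem libraries were shallower at these CpGs, with medians of 24, 11 and 17 reads on days 10, 16 and 19, against 31 and 39.5 reads in the virgin stem libraries of weeks 3 and 9. Pregnant mature libraries were shallower too, with medians of 35, 13 and 25.5 reads on those days, against 49 and 56 in virgins. Progenitor medians were 36, 10 and 14 reads in pregnancy, against 26.5 and 47.5 in virgins. The 3 retired libraries had medians of 12, 8 and 7 reads in stem, progenitor and mature cells. The part of depth in the differences below was not tested.

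The imprinted windows held more intermediate CpGs than the genome as a whole. Of the 142 CpGs read in all libraries, 36 (25.4%) averaged between 20% and 80%, against 16.7% of the shared CpGs of the genome. A further 83 (58.5%) averaged under 20%, against 39.7% in the genome, and 23 (16.2%) averaged over 80%, against 43.7%. The windows differed among themselves. Intermediate CpGs made up 12 of 85 (14.1%) in the H19 and Igf2 window, 21 of 53 (39.6%) in the Dlk1 and Meg3 window and 3 of 4 in the Rasgrf1 window. These shares describe the CpGs that MspI fragments cover and were not tested.

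**Figure D1:**
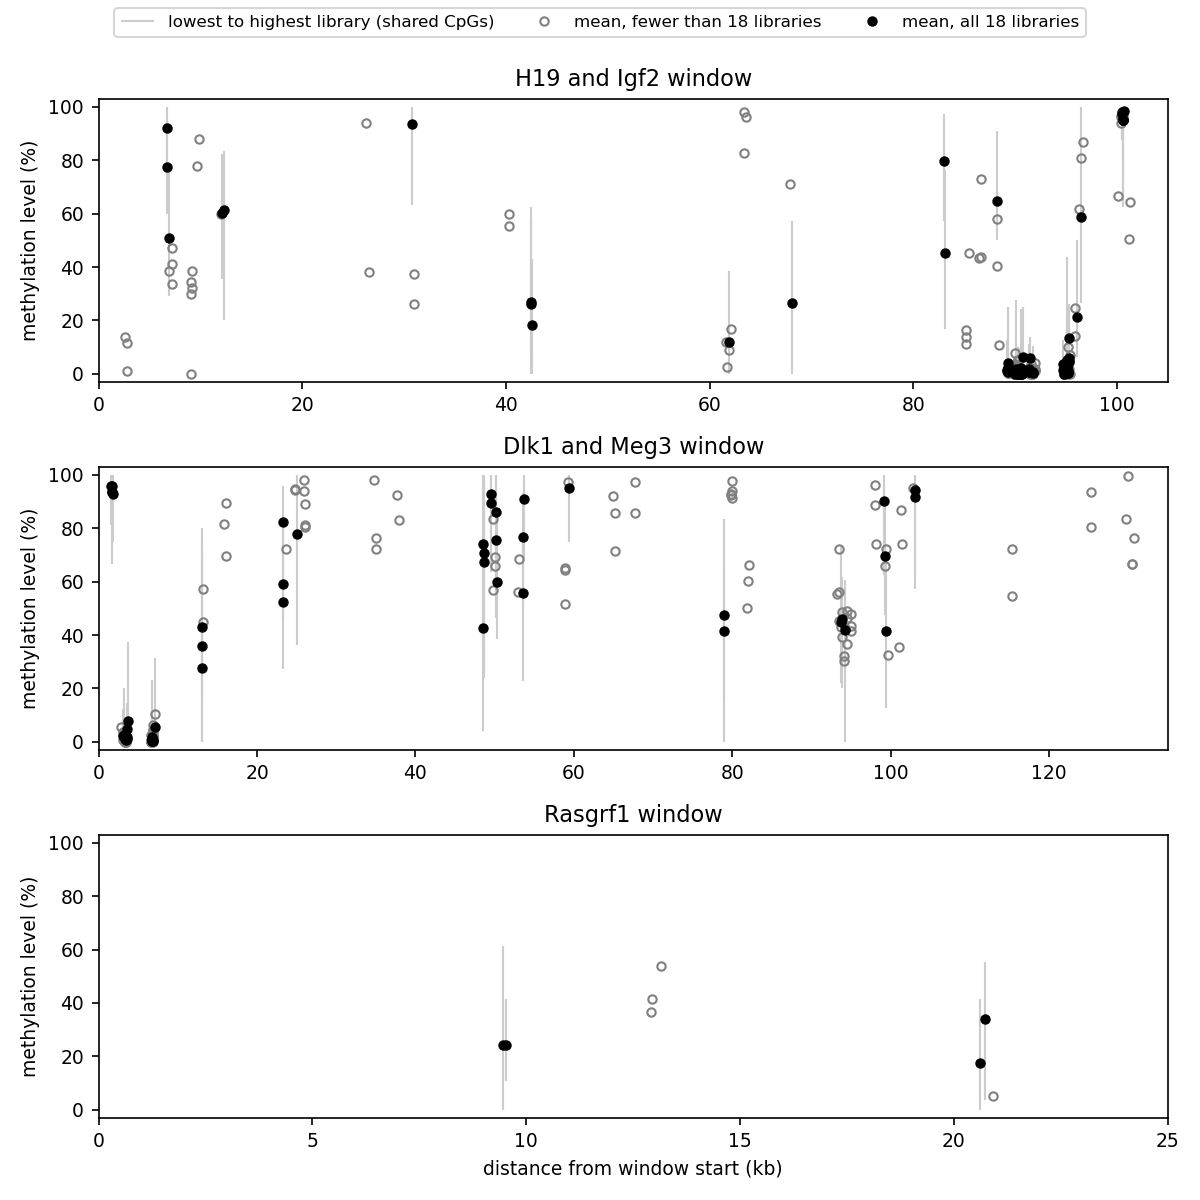
Methylation level (%) of every member CpG against its distance from the window start (kb), one panel per window. Filled points are means over all 18 libraries with a grey line from the lowest to the highest library, and open points are means over fewer libraries. Low stretches sit near 90 kb of the H19 and Igf2 window and near 3 and 7 kb of the Dlk1 and Meg3 window, and a cluster of intermediate CpGs, 45.0% on average, sits near 94 kb of the Dlk1 and Meg3 window.

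Runs of at least 5 CpGs read in every library were either almost free of methylation or almost fully methylated. These regions were defined with no gap over 500 bp, which gave 8 regions with 92 CpGs, and none of the 8 averaged between 20% and 80%. In the H19 and Igf2 window, the region at chr7:149844958-149845822, which starts inside the Igf2 promoter and runs upstream of it, averaged 0.555% ± 0.270 (SD, n = 18 libraries) over 31 CpGs. Its lowest CpG, 149845329, was at 0% in every library, and its highest and most variable, 149845815, averaged 6.32% ± 6.88. The floor of a CpG at 0 depends on its reads, and such intervals cover counting error only.

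Both neighbours of that region were low too. The region at chr7:149844223-149844345 lies on the downstream side of the Igf2 start site and averaged 1.89% ± 1.82 over 7 CpGs. Its levels ran from 0.69% at 149844319 to 4.17% at 149844330, and the largest SD over libraries, 6.19 points, was at 149844330 as well. The region at chr7:149846351-149846789 averaged 1.57% ± 0.776 over 7 CpGs, from 0.34% at 149846789 to 6.09% at 149846475, again the CpG with the largest SD. Further upstream, chr7:149849749-149850292 averaged 2.98% ± 1.07 over 17 CpGs, from 0% at 149849815 to 13.4% at 149850282. One of its CpGs, 149850119, reached 43.8% in 1 library while averaging 3.31%. The last region, chr7:149855538-149855696, was methylated throughout at 96.3% ± 1.77 over 7 CpGs, from 94.9% at 149855623 to 98.5% at 149855696, and its largest SD was 9.76 points at 149855635.

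The Dlk1 and Meg3 window began with the same contrast. The region at chr12:110686614-110686857 averaged 94.3% ± 2.72 over 5 CpGs, from 92.9% at 110686857 to 95.8% at 110686727, with the largest SD, 9.00 points, at 110686721. Only a short gap beyond it, chr12:110688116-110688736 averaged 2.67% ± 1.13 over 9 CpGs, from 0.63% at 110688439 to 7.84% at 110688736. The third, chr12:110691715-110692128, averaged 1.34% ± 1.11 over 9 CpGs, from 0.22% at 110691731 to 5.60% at 110692128, and in both of these regions the highest CpG was also the most variable. Regions of one window differed from each other at a p under 0.05 in 12 of 13 pairs, by a two-sided permutation test that flips the sign of each library's difference (p from 1e-05, the smallest it can give, to 0.0372). In 8 of these pairs the mean difference exceeded its SD over libraries, and in 4 pairs of low regions, at differences of 1.09 to 1.41 points in size, it did not. The pair that did not pass was chr7:149846351-149846789 against chr7:149844223-149844345, at a difference of -0.31 points and a permutation p of 0.569.

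**Figure D2:**
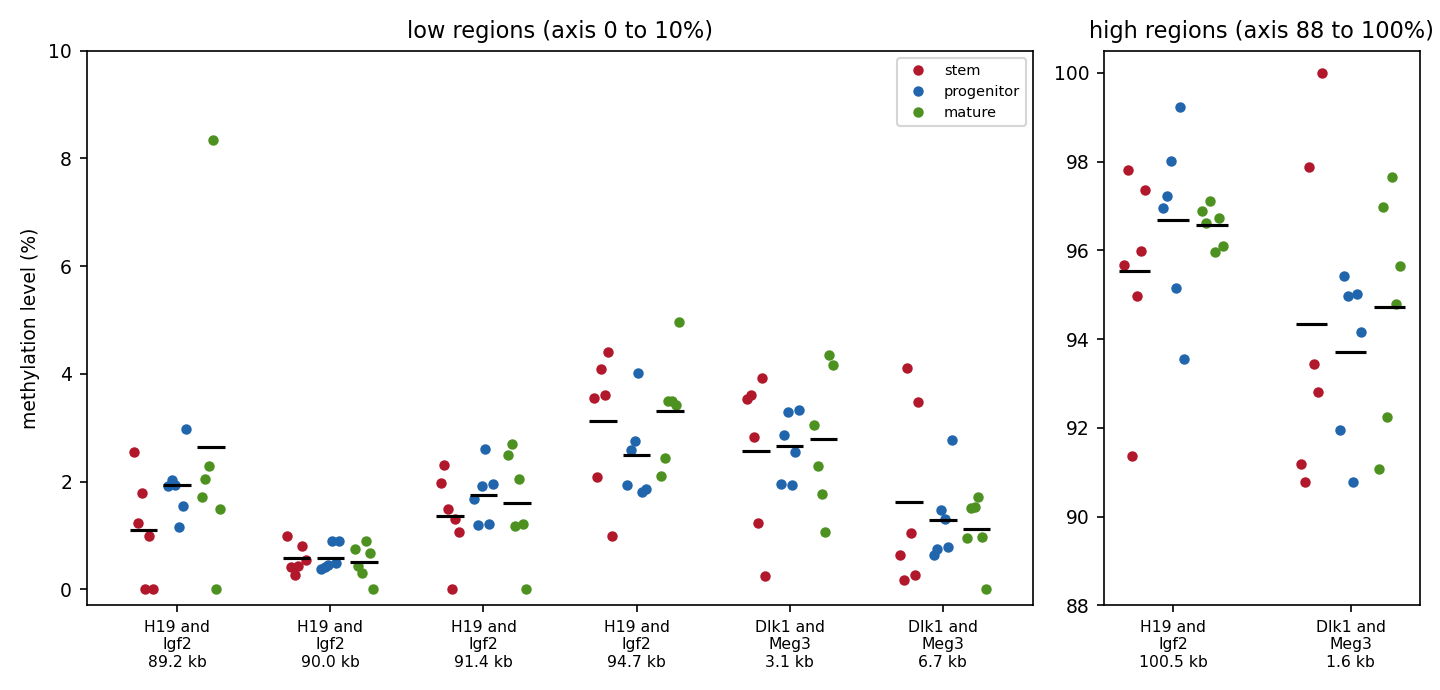
Methylation level (%) of the 8 regions in each of the 18 libraries, named by window and distance from its start (kb). Each point is 1 library, bars are the means of 6 libraries per cell type, and the left panel spans 0 to 10% and the right panel 88 to 100%. All libraries lie at the low or the high end, and the highest point among the low regions is the day 16 mature library at 8.33%.

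Intermediate levels were found in stretches outside these regions, where fewer CpGs were read in every library. Among 17 groups of 2 to 4 shared CpGs, 15 averaged between 20% and 80%. When all member CpGs were strung into runs with gaps of at most 500 bp, 30 of the 54 runs averaged between 20% and 80% and 10 between 40% and 60%. The intermediate run with the most CpGs, 19, lay at chr12:110778263-110780022 and averaged 45.0% ± 6.88, with libraries between 27.4% and 58.0%. Other runs of several CpGs were chr12:110734482-110735239, which averaged 75.6% ± 8.28 over 9 CpGs, and chr7:149761700-149762196, which averaged 63.2% ± 8.91 over 7 CpGs. In the run at chr12:110778263-110780022 the 3 CpGs read in all libraries averaged 44.3% ± 6.22. Stem, progenitor and mature libraries averaged 44.3% ± 6.87, 44.7% ± 5.40 and 43.9% ± 7.40 there (SD, n = 6 each). Pregnant, retired and virgin libraries averaged 43.6% ± 7.09 (n = 9), 46.9% ± 5.21 (n = 3) and 44.1% ± 5.94 (n = 6).

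Library by library, the median CpG of this run lay between 39.1% and 55.0% in 17 libraries. These medians rest on different CpGs, from 7 in the day 19 progenitor library to 19 in others. The day 16 progenitor library had the lowest median, 13.1%, and 6 of its 16 CpGs showed no methylated read. At the 3 CpGs read in all libraries it averaged 36.1%, above the day 16 stem library at 30.4%. At 110779103 the day 16 progenitor library had 0 methylated reads of 8, a count that allows a level of up to 37.5%. At 110779280 it had 0 of 5, which allows up to 60%. At 110778801 the same library had 19 of 26 reads methylated, or 73.1% (95% Wilson interval 53.9 to 86.3%). It is one of the shallowest libraries, with a median of 10 reads at the members.

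In the H19 and Igf2 window the intermediate groups lay on both sides of the low regions. The group at chr7:149761700-149761873 averaged 73.4% ± 6.77 and chr7:149767092-149767291 averaged 60.7% ± 11.4. A run of 5 CpGs between them, chr7:149764048-149764147, was lower at 33.2% ± 9.07. Further along, chr7:149797431-149797522 averaged 23.8% ± 13.1, chr7:149837989-149838128 averaged 62.6% ± 10.9 and chr7:149851087-149851458 averaged 40% ± 12.3. Levels between 20% and 80% were thus not limited to one stretch of the window.

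In the Dlk1 and Meg3 window, 8 of 10 groups were intermediate. They ran from 35.6% ± 15.6 at chr12:110698041-110698065 to 74.5% ± 7.29 at chr12:110738600-110738753. The remaining 2, at chr12:110734482-110734600 and chr12:110788033-110788036, averaged 91.2% ± 6.70 and 93.1% ± 8.14. The widest spread among all groups was at chr12:110733564-110733643, which averaged 63.7% ± 17.4 with its lowest level, 21.9%, in retired mature cells and its highest, 87.0%, in day 16 stem cells.

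The Rasgrf1 window was thinly covered, and its CpG groups sat below the middle of the scale. The group at chr9:89769450-89769529 averaged 24.3% ± 9.23 and that at chr9:89780620-89780724 averaged 25.8% ± 10.6. A run of 3 CpGs between them, chr9:89772915-89773152, averaged 44.8% ± 18.7 in the 17 libraries that read it. The single CpG at 89780918 was low, at 5.16% in 16 libraries.

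The spread of the intermediate CpGs was close to that of such CpGs elsewhere. The median SD over libraries was 14.6 points for the 36 intermediate members and 13.7 points for the intermediate CpGs of the genome. Read counts alone gave a median SD of 9.10 points for the members and 8.88 points for the genome. The observed SD exceeded the SD from read counts in 35 of 36 members, against 88.8% of intermediate CpGs in the genome.

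**Figure D3:**
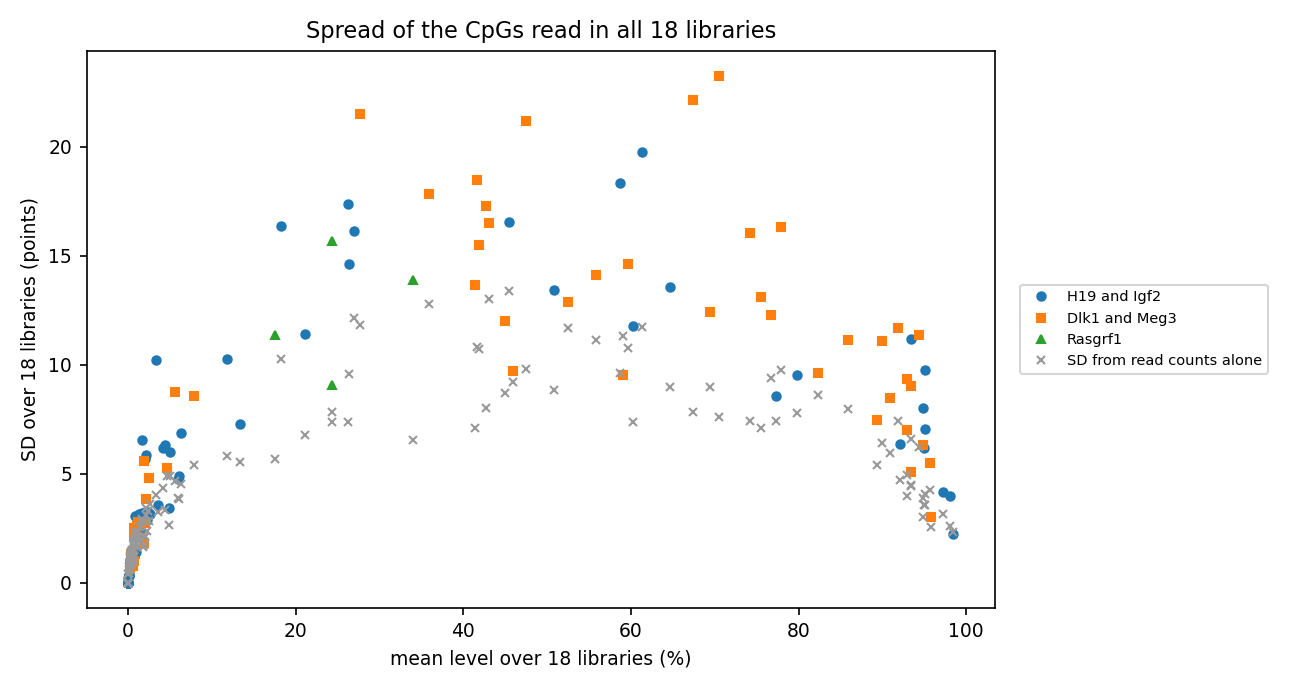
SD over 18 libraries (percentage points) against the mean level (%) of the 142 shared member CpGs, coloured by window. Crosses give the SD that the read counts alone would produce at the same CpG. Most intermediate CpGs lie above their crosses, with median SDs of 14.6 observed and 9.10 from read counts.

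The first comparison asked whether pregnancy went with a change at these loci. For a test across the genome, reads were summed in tiles of 1000 bp with at least 3 shared CpGs, of which 17 of 77064 lay in the windows. Calls needed a difference of at least 10 points and an adjusted p under 0.05, with Benjamini-Hochberg adjustment over all tiles. In stem cells 0 of the 17 window tiles were called, against 310 (0.402%) of all tiles. That count over all tiles was unstable, at 78 with a minimum of 10 reads, 0 in limma and 0 to 1589 with 1 library left out. Progenitor cells, mature cells and the average over the 3 cell types gave 0 window tiles each, and 0% of all tiles were called in each of these 3 comparisons. Unadjusted p-values under 0.05 were reached by 6 window tiles in stem cells, 2 in progenitor cells, 2 in mature cells and 4 in the average, against 14.3%, 3.72%, 5.07% and 6.52% of all tiles. On the same tiles limma called 0 and gave 3, 1, 0 and 2 window tiles at an unadjusted p under 0.05. Of all 77064 tiles, limma gave 8670, 2281, 2632 and 4751.

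The tile nearest to a call was chr12:110733001-110734000, which holds 4 CpGs of the Dlk1 and Meg3 window. Its CpG group averaged 81.1%, 87.0% and 78.4% in the pregnant stem libraries of days 10, 16 and 19, against 45.5% and 38.5% in the virgin stem libraries of weeks 3 and 9. All 3 pregnant stem libraries lay above both virgin ones, and the retired stem library stood at 71.3%. Mean levels in stem cells were 82.2% ± 4.35 in pregnancy (n = 3) and 42.0% ± 4.91 in virgins (n = 2). The tile differed by 38.8 points with p = 0.000816, but its adjusted p from the quasi-binomial fit was 0.0732, so it was not called. The group's difference of 40.2 points had an exact permutation p of 0.1, the smallest that 3 libraries against 2 allow.

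The other cell types did not show this pattern at the same 4 CpGs. Progenitor cells had 46.5%, 70.7% and 60.1% in pregnancy, against 60.9% and 71.7% in virgins. Mature cells had 77.2%, 75.9% and 45.2% in pregnancy, against 70.1% and 69.3% in virgins. Pregnant and virgin libraries overlapped in both. The pregnancy difference in stem cells exceeded that in progenitor cells by 45.2 points (p = 0.00101, adjusted p 0.212, quasi-binomial fit) and that in mature cells by 41.6 points (p = 0.00262, adjusted p 0.178). No tile of the windows passed these tests of a difference between cell types, 0 of 17 in each of the 3 pairs, and 0% of all tiles did for stem against progenitor, stem against mature and progenitor against mature cells. Unadjusted p-values under 0.05 were reached by 4, 1 and 0 window tiles in those 3 pairs, against 10.5%, 11.5% and 4.61% of all tiles.

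Other tiles of the window moved by less, and none was called. In the quasi-binomial fit, the next in stem cells was chr12:110735001-110736000 at -16.1 points (adjusted p 0.223), followed by chr7:149849001-149850000 at 3.65 points (adjusted p 0.237). The same 2 tiles led in progenitor cells, at 9.90 points and 1.20 points (adjusted p of 1 for both). In mature cells chr7:149850001-149851000 differed by 1.69 points and chr12:110784001-110785000 by 8.30 points (adjusted p of 0.953 for both, all from the quasi-binomial fit). At chr12:110735001-110736000 the differences in stem and progenitor cells had opposite signs, and the difference between them, -26.0 points, had an adjusted p of 0.242.

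The region and group levels were compared by exact permutation, with state labels permuted within each cell type. The 3 cell types of a stage share that stage, and the labels do not say whether they share animals, so these averaged tests treat as separate what may be tied. With whole stages as the unit, 3 pregnant against 2 virgin stages could not go below an exact p of 0.1, and the 1 retired stage could not reach 0.05 against either state. Averaged over cell types, 1 of 8 regions and 2 of 17 groups differed between pregnant and virgin libraries at an exact p under 0.05. By the same test 2 of 17 window tiles did, against 4.11% of all tiles. Tiles sum reads over at least 3 CpGs, whereas regions and groups are means over CpGs. No share over like regions or groups of the genome was taken, so only the window tiles are measured as all tiles are, here and below. Within a cell type, where 3 libraries against 2 cannot go below an exact p of 0.1, overlap was counted instead. Pregnant and virgin stem libraries did not overlap at 3 of 8 regions, 8 of 17 groups and 10 of 17 window tiles, against 26.1% of all tiles. That share was 40.4% among all intermediate tiles and 22.0% among the tiles under 20% or over 80%. Of the 17 window tiles, 8 were intermediate. In progenitor cells 2 regions, 2 groups and 1 window tile did not overlap, against 16.1% of all tiles. In mature cells 2 regions, 3 groups and 5 window tiles did not overlap, against 15.3% of all tiles.

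Higher in pregnancy was the group of 3 CpGs at chr12:110738600-110738753. It averaged 81.4%, 79.3% and 66.3% in the pregnant stem libraries of days 10, 16 and 19, against 59.7% and 58.1% in virgin stem cells of weeks 3 and 9. Progenitor cells had 75.6%, 75.9% and 74.9% in pregnancy, against 74.0% and 72.6% in virgins, and mature cells 78.7%, 80.6% and 79.0%, against 70.1% and 72.5%. By these means over CpGs, every pregnant library lay above both virgin libraries of its cell type. The mean was 76.8% ± 4.57 in pregnancy (n = 9) and 67.8% ± 7.05 in virgins (n = 6). The difference averaged over cell types was 9.00 points with an exact permutation p of 0.001, the smallest that permuting within cell types can give. By cell type it was 16.7 points in stem, 2.17 points in progenitor and 8.09 points in mature cells. Within the 11 libraries deposited with 4 columns, which leave out all day 19 and retired libraries and 1 of day 16, it was 10.7 points (exact permutation p = 0.00926). The tile that holds these CpGs, summed over reads, differed by 5.99 points with an adjusted p of 0.730 (quasi-binomial fit) and was not called. In this tile the progenitor libraries overlapped, at 75.2%, 72.3% and 75.4% in pregnancy against 76.2% and 70.8% in virgins. Their difference there was 0.764 points.

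Lower in pregnancy was the group of 2 CpGs at chr7:149837989-149838128 in the H19 and Igf2 window. Stem cells had 60.2%, 57.0% and 47.2% in pregnancy, against 70.0% and 73.4% in virgins. Progenitor cells had 47.1%, 51.6% and 55.5% in pregnancy, against 68.4% and 65.6% in virgins. Mature cells had 53.3%, 68.9% and 53.3% in pregnancy, against 81.7% and 67.2% in virgins, so only in mature cells did the groups overlap, through the day 16 library. The mean was 54.9% ± 6.75 in pregnancy and 71.0% ± 5.86 in virgins, a difference of -16.1 points averaged over cell types (exact permutation p = 0.003). Within the libraries deposited with 4 columns it was -15.4 points (exact permutation p = 0.0185). The group was read thinly, with 13 to 175 reads per library. It holds too few CpGs to form a tile, so the test across the genome did not cover it.

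The region at chr7:149849749-149850292 averaged 3.46% ± 0.779 in pregnancy and 2.45% ± 0.590 in virgins. The difference of 1.01 points had an exact permutation p of 0.012, and it rested on levels near 0. Without the week 3 virgin progenitor library it was 0.898 points with an exact permutation p of 0.0725, and with any CpG read in a library it was 0.651 points with an exact p of 0.102. Of the 48 region tests that could reach an exact p under 0.05 it was the only one to do so, and 9 of 102 such group tests did. These counts pool comparisons that share libraries. By comparison, 2.33% to 7.91% of all tiles passed the exact test.

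Beside those named above, pregnant and virgin stem libraries did not overlap at 5 groups. At 3 of them the difference was 9.87 points (chr12:110708323-110708340), -16.7 points (chr12:110735129-110735239) and 8.56 points (chr12:110784119-110784400). The other two differed most. The CpGs at chr12:110763922-110764001 averaged 58.2%, 62.2% and 63.7% in pregnant stem cells of days 10, 16 and 19, against 36.7% and 43.1% in virgin stem cells of weeks 3 and 9. Those at chr9:89780620-89780724 in the Rasgrf1 window averaged 21.7%, 10.6% and 9.8% in pregnant stem cells, against 35.6% and 44.4% in virgin stem cells. The group on chromosome 12 was thus higher and the one on chromosome 9 lower in pregnancy. The differences of 21.5 and -26.0 points each had an exact permutation p of 0.1, the smallest possible. Averaged over cell types they were 4.50 points (exact permutation p = 0.628) and -6.74 points (exact permutation p = 0.203).

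**Figure D4:**
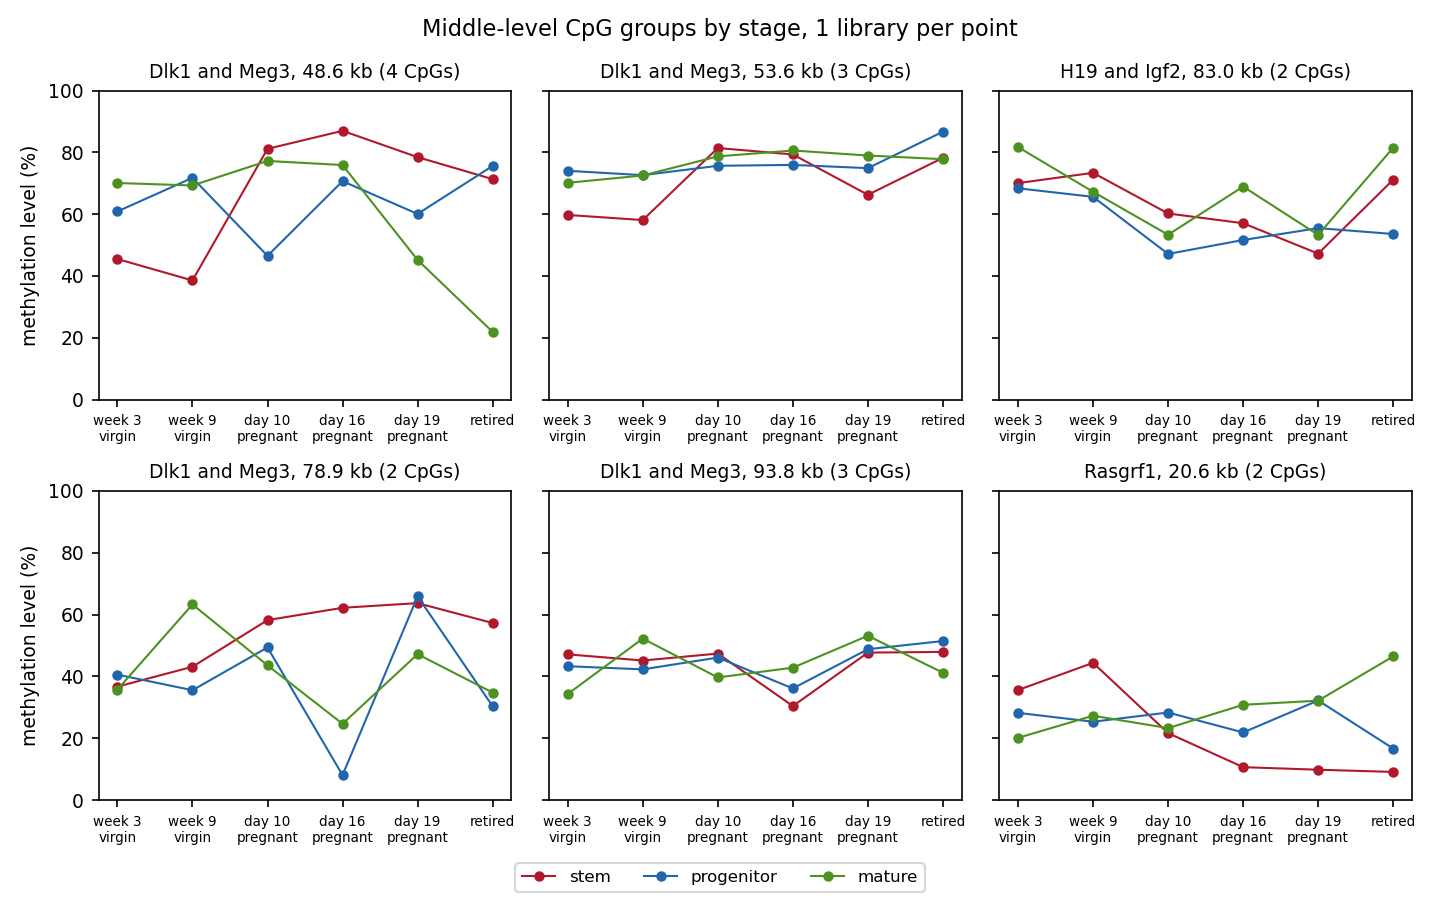
Methylation level (%) of 6 CpG groups at the 6 stages, one line per cell type and 1 library per point, with panels named by window and distance from its start (kb). In the top left panel the pregnant stem libraries lie between 78.4 and 87.0% and the virgin ones at 38.5 and 45.5%. In the bottom middle panel all libraries lie between 30.4 and 53.2%.

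Retired breeders were compared next, each cell type with 1 retired library. All retired files were deposited with 6 columns and all virgin files with 4. Retirement, file layout and the unstated age of the mice cannot be told apart in that comparison. The retired libraries were also among the shallowest. Against virgins, 0 of 17 window tiles were called, with 0% of all tiles called, and 2 reached an unadjusted p under 0.05, against 5.27% of all tiles. Against pregnant libraries 0 of 17 were called, again with 0% of all tiles called, and 2 reached an unadjusted p under 0.05, against 4.83% of all tiles. limma called 0 window tiles in either comparison, with 38 and 65 of all 77064 tiles called. It gave 3 and 4 window tiles at an unadjusted p under 0.05, against 12657 and 10602 of all tiles in limma. The leading tiles against virgins were chr12:110738001-110739000 at 14.1 points and chr12:110735001-110736000 at 11.5 points (adjusted p 0.887 for both). Those against pregnant libraries were chr12:110735001-110736000 at 13.8 points and chr12:110708001-110709000 at -12.2 points (adjusted p 0.947 for both, quasi-binomial fit).

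At the level of groups, 1 of 17 differed between retired and virgin libraries at an exact p under 0.05 and 0 of 8 regions did. Of the window tiles 1 of 17 did, against 7.91% of all tiles. The group was chr12:110738600-110738753, which was also higher in pregnancy. The retired libraries stood at 78.2%, 86.7% and 77.8% in stem, progenitor and mature cells, above all 6 virgin libraries. The difference was 13.0 points with an exact permutation p of 0.037, the smallest that permuting within cell types allows. The pregnancy and retirement comparisons share the same virgin libraries, so they are not independent of each other.

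Between retired and pregnant libraries 4 of 17 groups and 0 of 8 regions had an exact p under 0.05. Of the window tiles 3 of 17 did, against 7.45% of all tiles. The group at chr7:149797431-149797522 averaged 38.9% ± 10.6 in retired (n = 3) and 18.7% ± 10.6 in pregnant libraries (n = 9), a difference of 20.1 points (exact permutation p = 0.0156, the smallest possible). The group at chr12:110708323-110708340 averaged 55.2% ± 1.92 in retired and 67.4% ± 5.40 in pregnant libraries, with no overlap and the same exact permutation p. Retired libraries were higher at chr12:110735129-110735239, by 12.6 points (exact permutation p = 0.031, or 0.0833 without the day 16 or the day 19 stem library), and at chr7:149837989-149838128, by 13.8 points (exact permutation p = 0.031). At the last, retired stem, progenitor and mature libraries stood at 71.2%, 53.6% and 81.5%. With reads pooled over its CpGs that difference was 7.23 points with an exact p of 0.141. With any 1 retired library left out, the smallest exact p that this comparison allows is 0.0625.

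Cell types were compared within stages. Stem against progenitor cells gave 0 of 17 window tiles called with 0% of all tiles called, stem against mature cells 0 with 0% of all tiles, and progenitor against mature cells 0 with 0% of all tiles. Unadjusted p-values under 0.05 were reached by 2, 3 and 0 window tiles, against 9.34%, 11.1% and 5.98% of all tiles. limma called 0 and gave 1, 3 and 1 window tiles, against 6548, 6725 and 3551 of all 77064 tiles in limma. The virgin stages were also set against each other, and week 9 against week 3 gave 0 of 17 window tiles called, with 0% of all tiles called and 0 window tiles at an unadjusted p under 0.05 by either test, against 6.29% of all tiles in the quasi-binomial fit and 2080 of all 77064 tiles in limma.

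The leading tile for stem against progenitor cells was chr12:110698001-110699000. Its CpG group averaged 23.3% ± 12.8 in stem cells and 49.4% ± 10.8 in progenitor cells (n = 6 each), with mature cells at 33.9% ± 11.4. Stem libraries ran from 13.3% to 45.2%, and progenitor libraries from 38.0% to 62.0%, so the ranges overlapped. The tile differed by -26.7 points (p = 0.0073, adjusted p 0.373, quasi-binomial fit), and the exact permutation p of the group was 0.062. The tile at chr12:110784001-110785000 differed by -5.46 points for stem minus progenitor and by -9.50 points for stem minus mature cells (adjusted p 0.386 and 0.196, quasi-binomial fit). For stem against mature cells chr12:110738001-110739000 followed at -7.39 points and chr7:149849001-149850000 at 2.19 points, neither called.

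By exact permutation within stages, 1 of 17 groups and 0 of 17 window tiles differed between stem and progenitor cells, against 3.54% of all tiles. Between stem and mature cells 1 group and 0 window tiles did, against 3.62% of all tiles. Progenitor and mature cells gave 0 of 17 groups and 0 window tiles, against 2.33% of all tiles, and no region passed in any of the 3 comparisons. Both group counts of 1 came from the Rasgrf1 window. The CpGs at chr9:89769450-89769529 averaged 31.6% ± 9.28 in stem cells, 20.7% ± 7.47 in progenitor cells and 20.7% ± 7.21 in mature cells (n = 6 each). Stem libraries ran from 20% to 42.9%, so the ranges overlapped. The differences of 11.0 and 10.9 points each had an exact permutation p of 0.031, the smallest that 6 stages allow. At a minimum of 10 reads they were 6.29 and 8.58 points (exact permutation p of 0.438 and 0.188). In files of 4 columns alone they were 13.7 and 5.87 points (exact permutation p of 0.25 and 0.125). Each is the smallest p that the stages left there allow. Without the day 19 stem or mature library the difference from mature cells was 6.97 points. Of 17 other settings, 2 kept the first and 3 the second under 0.05, and with a library left out the 5 remaining stages cannot reach that threshold.

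At the 18-library level, 3 tiles elsewhere in the genome followed each window's most central group most closely, out of 77047 searched. For chr7:149851087-149851458 the closest was chr8:67042001-67043000 (Pearson r of 0.879 over 18 libraries), for chr12:110763922-110764001 it was chr16:75640001-75641000 (r of 0.892), and for chr9:89780620-89780724 it was chr2:164406001-164407000 (r of 0.897). The libraries share depth between such tiles, and the closest of so many are high by selection, so these values describe only the ranking.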

How the data were processed

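Libraries were made by bisulfite sequencing of MspI fragments, per the labels' protocols, and positions are on mm9, per the submitters' processing notes. The files were deposited without a header and give, at each CpG, the count of methylated reads and the count of all reads. Of the 18 files, 7 (the day 16 progenitor, all day 19 and all retired ones), also hold a column of scores, as deposited by the authors. It equals 1000 times the methylated share within 0.5 and was used only for that check. Aligner, caller and duplicate handling are not stated by any label or header.

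The level of a CpG was its methylated reads over all its reads, at 5 reads or more. Tiles of 1000 bp with at least 3 shared CpGs were fitted with a quasi-binomial logistic regression over all 18 libraries (9 groups of cell type by state, or cell type plus stage), with a moderated dispersion held at 1 or above, an F test and p-values adjusted by Benjamini-Hochberg across 77064 tiles, tried on simulated counts first. Levels of regions (at least 5 shared CpGs, gaps of at most 500 bp) and of groups (2 to 4) were means over CpGs, compared by two-sided exact permutation of libraries within cell types or by sign flips within stages, and region pairs by 100000 sign flips. The groups, the tests between cell types of the pregnancy difference and the shares of all tiles past the exact tests were added after seeing the data. Stages pair the cell types because the labels give each stage 1 library of each.

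All regions are described, with the CpGs of lowest mean, highest mean and largest SD. Tiles named are those with an unadjusted p under 0.05, at most 3 per comparison by smallest p, and groups named beyond them were chosen after their values were seen. The 3 tiles most like the group nearest to 50% in each window were ranked by Pearson r. Members and lists were chosen with earlier results of these data known. Alternatives were 10 reads, any CpG with 5 reads, tiles of 500 bp, leaving out CpGs read more deeply than the 99th percentile, pooled reads, limma on log ratios with 1 read added, no stage pairing, files of 4 columns alone and each library left out. Promoters came from RefSeq (GRCm38.p6) and were placed by CpG spacing only. Reads may be copies of 1 molecule, so intervals cover counting error only. The tools were limma 3.58.1 and statmod 1.5.0 in R 4.3.3, and pandas 2.3.3, matplotlib 3.10.9, scipy 1.17.1 and numpy 2.4.6 in Python 3.11.15.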

Additional observations from a re-analysis of the deposited data

Results flagged for a closer look

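Within each cell type the 6 libraries of every region and group were searched for 1 library set apart from the other 5, by Dixon's criterion on the gap to the nearest library. This gave 8 such libraries in 75 sets (10.7%). The criterion flags about 1 in 20 sets of independent, normally distributed values. Bounded levels of unequal depth, in sets that share libraries, do not meet that condition, so no excess over chance can be read from the count. No cause was tested for any of them.

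In the H19 and Igf2 window, the day 16 mature library had 8.33% at the low region chr7:149844223-149844345, where the other mature libraries lay between 0% and 2.29%. At chr7:149767092-149767291 the retired stem library had 42.3%, against 60.9 to 70.4% in the other stem libraries. At the same group the day 19 mature library also had 42.3%, against 61.1 to 72.1% in the other mature libraries.

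In the Dlk1 and Meg3 window, chr12:110734482-110734600 stood at 72.7% in the day 19 stem library, against 89.5 to 98.2% in the other stem libraries, and at 79.96% in the day 19 mature library, against 91.8 to 98.1% in the other mature libraries. The retired mature library had 87.0% at chr12:110735129-110735239, against 70.3 to 75.5% in the other mature libraries. The retired progenitor library had 86.7% at chr12:110738600-110738753, against 72.6 to 75.9% in the other progenitor libraries. At chr12:110778801-110779280 the day 16 stem library had 30.4%, against 45.1 to 47.9% in the other stem libraries. The libraries set apart were all of day 16, day 19 or retired stages, which include the shallowest ones.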

How the results depend on the processing

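Counts of window tiles called were 0 under every alternative run, with 1 exception. Without the day 19 mature library, the leading pregnancy tile in stem cells, chr12:110733001-110734000, was called (window tiles called 0 to 1 over libraries left out), with an adjusted p of 0.0236 in the quasi-binomial fit. Over its 22 alternatives the difference ran from 34.5 to 43.1 points and the adjusted p from 0.0236 to 0.470. Regions at an exact p under 0.05 for pregnancy averaged over cell types numbered 1, and 0 with any CpG read in a library, 2 in files of 4 columns alone and 0 to 2 over libraries left out. The 0 came without the week 3 virgin progenitor library and the 2 without the day 16 progenitor or the day 19 stem library. Stem against progenitor cells gave 1 region at a minimum of 10 reads, against 0. The causes of these shifts were not tested. Differences were followed for the named tiles and for the regions and groups at an exact p under 0.05, and none of these changed direction under any alternative run. They were not followed for the remaining groups or for the tests between cell types of the pregnancy difference. Without the replicate block of stages, 0 window tiles were called and 0 regions passed in each of the 3 cell type comparisons, the same as with it. Among the groups, the 2 pregnancy differences averaged over cell types, at chr12:110738600-110738753 and chr7:149837989-149838128, kept an exact permutation p under 0.05 in 18 of 18 alternatives, at 5.99 to 10.7 points and -18.5 to -13.7 points. Their exact permutation p rose to as much as 0.022 and 0.0185. The group differences that involve retired libraries, and those between cell types, cannot reach that threshold once a retired library or a stage is left out. At chr9:89769450-89769529 the cell type differences were also smaller in some alternatives, as low as 6.29 points against progenitor and 5.87 against mature cells. Over all tiles, the calls for pregnancy in stem cells moved from 310 to 78 at 10 reads, 468 with any CpG, 108 at 500 bp and 0 in limma, and over libraries left out they ran from 0 (without the day 10 or day 16 stem library) to 1589 (without a virgin mature library). limma called 38 tiles between retired and virgin and 65 between retired and pregnant libraries, against 0. Depth limits the groups of few CpGs most, down to 10 reads in 1 library at chr12:110788033-110788036.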
